A study of Mus musculus with 12 samples.

Results

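Alternative exon ends are pairs of exon forms that share one splice site and differ at the other, so that an exon has a longer and a shorter version. Some longer forms reach to the far end of a neighbouring exon form, as described further on. They were collected from the transcript events that the authors listed as alternative exon ends in mouse T cells. Within a locus, 2 such events were paired when they shared their start or their end but not both. A pair was kept when the summed FPKM of both forms was at least 5 in each of the 12 libraries, with an event that a library did not list taken as 0, and when each form reached 1 FPKM in at least 3 libraries. This left 1746 pairs of 16817 (10.4%), at 1226 of the 5814 loci that held a pair. The members were thus chosen by their FPKM in these same libraries. FPKM counts fragments relative to transcript length and library size and gives no read numbers, so the depth behind each value is unknown. The measure described throughout is the share of the longer form, its FPKM as a percent of the summed FPKM of the pair.

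The libraries came from CD4 T cells of mouse spleen in 4 groups of 3. KI naive and KIKO naive cells were unstimulated, and KI activated and KIKO activated cells had been exposed for 16 h to beads that carry antibodies to CD3 and CD28. The labels give the genotypes only as KI and KIKO, with no allele, strain, age or sex, and the titles of the KIKO activated libraries say T cells without CD4. The series concerns a faulty proteasome in T cells, and the comparisons ask how splice site use changed on activation in each genotype and how it differed between the genotypes.

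In splicing, the donor is the site at the start of an intron and the acceptor is the site at its end. The U1 particle recognises the donor, and the U2AF proteins with the branch point factors recognise the acceptor. SR proteins mostly help the use of nearby sites and hnRNP proteins often hinder it, so that the balance between them can move an exon end. When an exon ends at a more distant donor or begins at an earlier acceptor, the added segment can insert codons, shift the reading frame or leave what is otherwise part of an intron in the RNA. Stimulated T cells are known to change the splicing of many transcripts as they leave rest.

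Of the 1746 pairs, 1015 differed at the acceptor and 731 at the donor. The longer form exceeded the shorter by 1 to 8294 bp, with a median of 65 bp and quartiles of 24 and 233 bp. Both forms were found as exons of the mouse GENCODE M21 annotation in 1047 pairs (60%), by the lengths and spacing of exons and introns. In these the added segment ended in AG, the usual end of an intron, in 640 of 640 acceptor pairs. It began with GT in 394 of 407 donor pairs and with GC in the other 13. The segment was coding in 521 pairs, and in 394 the longer form occurred only in transcripts annotated as noncoding.

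Length and position went together. The difference was a multiple of 3, which keeps the reading frame, in 346 of the 521 coding pairs (66.4%) and in 104 of the 394 noncoding ones (26.4%). Differences of exactly 3 bp were found in 69 pairs, 65 of them at the acceptor. In the 38 of those 65 that matched the annotation, the added codon-sized segment was CAG in 32, AAG in 3 and TAG in 3. These tandem acceptors place one AG directly after another, and the following stretches show 5 of the highest by FPKM among those with a mean share between 10% and 90%. They were read from GENCODE M21 transcripts, 5′ to 3′, with the added segment in capitals and 12 bases of the spliced transcript on each side.
Hnrnpc: gcaagcaagcagTAGagatgaagaatg
Nolc1: cttctggctcaaCAGgtccaccaaagc
Fkbp8: cccccagggcagCAGgagcccatacat
Hdgfl2: cgcaagaagaagAAGgtgccatcagcc
Usp19: ccctctctcctgAAGaaacctctggga

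The next set shows the added coding segments of pairs described further on. Rps18 and Mtmr12 each passed the test in a comparison, and Srsf7 and Hnrnph1 encode splicing factors. Anapc5 and Arhgap4 had a form at 1 FPKM in 1 group only and are shown as a description. The capitals again mark the added segment. In the donor pairs Mtmr12, Srsf7 and Hnrnph1 it opens with GT, and in the acceptor pairs Rps18, Anapc5 and Arhgap4 it closes with AG.
Mtmr12: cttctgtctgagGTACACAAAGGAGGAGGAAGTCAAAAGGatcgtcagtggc
Srsf7: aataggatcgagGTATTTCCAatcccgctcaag
Hnrnph1: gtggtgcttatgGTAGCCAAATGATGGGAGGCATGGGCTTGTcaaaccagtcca
Rps18: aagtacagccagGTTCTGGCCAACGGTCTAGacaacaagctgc
Anapc5: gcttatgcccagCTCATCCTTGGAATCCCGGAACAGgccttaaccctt
Arhgap4: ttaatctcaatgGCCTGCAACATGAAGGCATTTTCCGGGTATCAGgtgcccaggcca

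The mean share over the 4 groups was under 10% in 570 pairs (32.6%), over 90% in 401 (23%) and between in 775 (44.4%). Coding pairs had a median share of 78.1%, and pairs whose longer form is annotated only in noncoding transcripts had 8.65%. The share was lower where more was added. Its median over pairs was 58.1% at up to 30 bp (535 pairs), 41.5% at 31 to 300 bp (834 pairs) and 10.8% above 300 bp (377 pairs). The plot of length differences and shares by size class shows the peak of acceptor pairs at 3 bp and the pile of long extensions near a share of 0.

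**Figure D1:**
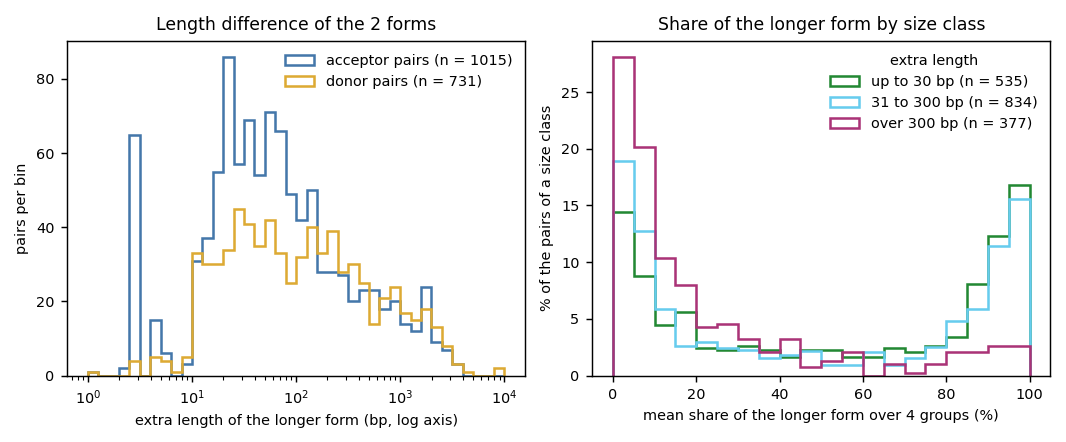
Left, number of pairs by the extra length of the longer form (bp, log axis) for 1015 acceptor and 731 donor pairs. Right, percent of the pairs of each size class by the mean share of the longer form over the 4 groups. Pairs over 300 bp crowd at the low end, and shorter pairs pile up at both ends.

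Pairs are not independent of each other. Of the 1226 loci, 330 held 2 or more kept pairs, and 224 events belonged to more than 1 pair. Within a group the share of a pair had a median SD of 4.92 points over the 3 libraries, and 8.39 points where the mean share lay between 10% and 90%. Nothing says that the 3 libraries of a group came from separate animals, so p-values measure the spread between these libraries. Both forms were listed in all 12 libraries in 719 pairs (41.2%), and a share of exactly 0 or 100 means that a form was not listed. A share printed as 100% can also be a rounded one with a trace of the shorter form, as at Lat and in the 2408-bp pair of Snrnp70. In 16 pairs 1 form reached 1 FPKM in the libraries of 1 group only, so the filter itself required a difference there. Of the calls given further on, this holds for 4 of 23 in KI activation, 3 of 8 in KIKO activation and 3 of 7 between naive cells; these are Arhgap9, Gimap3, Thoc2, Tomm40, Anapc5, Sidt2 and Arhgap4, and their values are given as a description with no p. Beyond these, some called pairs passed the minimum per form through 1 genotype or 1 state alone. A form of Psmb8 reached 1 FPKM in KI libraries only, and forms of Dnajb6 and Ankrd10 did so in KIKO libraries only. Forms of Ewsr1, Mdn1, Snrnp70 and Exosc7 reached it in naive libraries only, and 1 of Ppcdc in activated ones only. The filter favours a difference in the matching comparison there, so their p-values are not free of it.

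The thresholds left close cases on both sides. Parl (donor, 56 bp) and Acbd5 (acceptor, 10 bp) were kept with lowest summed values of 5.0201 and 5.0295 FPKM, and Naa20 (donor, 30 bp) and Tssc4 (donor, 30 bp) were left out at 4.9822 and 4.9947. Of 5969 pairs past the summed FPKM, 4223 failed the minimum per form; the rarer form reached 1 FPKM in exactly 2 libraries in 521 pairs and in exactly 3 in 284.

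The cell identity of the libraries was checked with marker loci. Cd3e lay between 109 and 210 FPKM and Cd4 between 86.4 and 221, while Ms4a1, Itgam and Klrb1c were not listed; Trac, of the T cell receptor alpha chain, stood at 0 in 5 libraries. KIKO naive 2 and KIKO activated 2 stood apart: their summed level of the 5 myeloid markers was 202 and 162 FPKM against 0 to 5.97 in the other 10 libraries, carried by S100a8, S100a9 and Lyz2, and Gzma stood at 8.01 and 7.57 against 0. KIKO naive 2 also lacked a form in 34.1% of the kept pairs, against 19.2% to 26% elsewhere. Results are given below with these libraries left out where they changed a count, and fewer cells of a type cannot be told apart from less RNA per cell.

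Each pair was tested with limma on log2 of the longer over the shorter form, 1 FPKM added to each, with p-values adjusted over all 1746 pairs; a pair is said to be called at an adjusted p under 0.05. Because 1 FPKM was added, a pair with one form near 0 in both groups can change on this scale when only the level of the locus changes, so calls are given first where the mean shares also differed by at least 10 points.

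On activation of KI cells more longer forms fell than rose. Of 1746 pairs, 23 were called (1.32%), 5 with the longer form higher in activated cells (0.286%) and 18 with it lower (1.03%). Of these, 17 differed by at least 10 points (0.974%), 4 up (0.229%) and 13 down (0.745%). The largest falls were at Ewsr1, Rexo1, Arglu1, Tmem208, Nxf1 and Zw10. The longer forms that rose were those of Chd3, Mtmr12, Snrnp70 and Mdn1. By a plainer measure, the shares of the 2 groups did not overlap and their means differed by at least 10 points in 65 pairs with the longer form higher (3.72%) and in 127 with it lower (7.27%).

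Arglu1 encodes an arginine- and glutamate-rich nuclear protein that takes part in splicing. Its acceptor pair (chr8:8731384-8731948, minus strand, 481 bp, GRCm39 as in the files; listed there under the neighbouring Mir7654) has a longer form that M21 does not hold. The longer form made up 74.2%, 79.1% and 70.3% of the pair in KI naive 1 to 3 and 24.0%, 13.5% and 22.6% in KI activated 1 to 3. All activated libraries lay below all naive ones, a fall of 54.5 points. On the log2 ratio scale the change was -3.41 ± 0.474 (SE, limma adjusted p = 0.012). In KIKO cells the shares were 78.5%, 73.5% and 82.0% before and 58.3%, 43.5% and 64.9% after activation, again with no overlap, at a difference of -22.4 points that did not pass (limma adjusted p = 0.21). The difference between the genotypes' responses did not pass either (limma adjusted p = 0.43). A 457-bp donor pair sets the same longer form against another shorter form, of 108 bp, and moved little. There the longer form took 92.6%, 91.7% and 93.1% in KI naive 1 to 3 and 90.3%, 77.4% and 96.2% in KI activated 1 to 3 (limma adjusted p = 0.34). In KIKO cells it took 95.7%, 92.9% and 97.5% before and 99.5%, 92.2% and 95.9% after activation (limma adjusted p = 0.91). The level of the Arglu1 locus fell in both, by 0.71 and 0.54 on the log2(FPKM + 1) scale (limma adjusted p = 0.0012 and 0.01).

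Nxf1 encodes the main export receptor that carries mRNA out of the nucleus, and its own transcript is known for an intron that can be retained. The donor pair of 1802 bp (chr19:8742286-8744197, plus strand; listed as Tmem223) has both forms annotated, the added segment being coding and untranslated. The longer, 1912-bp form stood at 75.9%, 70.9% and 80.7% in KI naive 1 to 3 and at 44.1%, 35.4% and 34.9% in KI activated 1 to 3. This was a fall of 37.7 points, or 2.28 ± 0.434 in log2 ratio (SE, limma adjusted p = 0.036), without overlap. KIKO naive 1 to 3 had 74.2%, 82.1% and 70.2% and KIKO activated 1 to 3 had 54.5%, 45.4% and 50.4%, which also did not overlap and did not pass (limma adjusted p = 0.14). The acceptor pair of 1875 bp at Nxf1, called as well, shares the 1912-bp form with it and is not separate evidence.

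At Ewsr1 and Rexo1 the longer form was not listed in any KI activated library. Ewsr1 encodes an RNA-binding protein of the FET family, and the longer form of its 3333-bp donor pair (chr11:5028920-5032433, minus strand, not in M21) took 62.2%, 89.8% and 42.5% in KI naive 1 to 3 and was unlisted in all 6 activated libraries of both genotypes. KIKO naive 1 and 2 had 65.4% and 63.5%, but KIKO naive 3 had 0, with 107 FPKM in the shorter form. The KI change was -7.61 ± 1.64 in log2 ratio (SE, limma adjusted p = 0.048) and the KIKO change did not pass (limma adjusted p = 0.25). A 2768-bp donor pair has the same shorter form with another longer form. That longer form took 57.5%, 87.1% and 50.7% in KI naive 1 to 3 and 0 in KI activated 1 to 3 (limma adjusted p = 0.095). It took 53.7%, 29.4% and 0 in KIKO naive 1 to 3 and 49.2%, 0 and 0 in KIKO activated 1 to 3 (limma adjusted p = 0.76). Rexo1, named for its likeness to RNA exonucleases, had 60.9%, 68.0% and 41.3% of the longer form of its 268-bp donor pair in KI naive 1 to 3 (chr10:80384899-80386899, minus strand, longer form not in M21) and 0 in KI activated 1 to 3. In KIKO cells its share went from 58.4%, 58.0% and 40.3% to 0, 6.9% and 24.8%. The KI difference of -56.7 points passed (limma adjusted p = 0.023) and the KIKO difference of -41.7 points did not (limma adjusted p = 0.094).

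Tmem208 encodes a membrane protein of the endoplasmic reticulum that helps proteins enter it. The longer form of its 234-bp donor pair (chr8:106054954-106055324, plus strand) is annotated only in a noncoding transcript and went from 62.3%, 88.0% and 78.8% in KI naive 1 to 3 to 36.4%, 27.6% and 26.5% in KI activated 1 to 3. In KIKO cells it went from 93.0%, 85.7% and 96.9% to 55.2%, 57.3% and 51.4%. Both shifts were free of overlap; the KI one passed (limma adjusted p = 0.036) and the KIKO one, 37.2 points down, had limma adjusted p = 0.068. Zw10 encodes a protein of the kinetochore and of Golgi traffic. In its 16-bp donor pair (chr9:48972355-48972530, plus strand, longer form not in M21), the KI naive libraries lay close together at 32.1%, 32.3% and 33.3%, and the longer form was unlisted in KI activated 1 to 3 (limma adjusted p = 0.048). Among KIKO libraries it was listed in KIKO naive 3 (19.2%) and KIKO activated 3 (12.2%) only.

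The other 5 loci with a fall of at least 10 points lie outside the rule by which genes were picked for naming and are given after their values were seen. They were Stap1, an adaptor of receptor signalling, Pcnp, Il27ra, a cytokine receptor chain, Ubac1, a subunit of a ubiquitin ligase complex, and Ppcdc, an enzyme of coenzyme A synthesis. Their mean shares fell by 31.4, 29.2, 22.3, 17.8 and 15.4 points in KI cells, with limma adjusted p of 0.036, 0.044, 0.036, 0.045 and 0.031. The remaining fall of this size was that of Thoc2, taken up with the genotypes.

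Chd3 had the largest rise. It encodes an ATPase of the NuRD chromatin remodelling complex, and its donor pair of 46 bp lies at chr11:69237398-69237639 (minus strand, longer form not in M21). Its share was 6.34%, 13.7% and 1.65% in KI naive 1 to 3 and 65.7%, 51.7% and 58.5% in KI activated 1 to 3, a rise of 51.4 points and of 4.36 ± 0.87 in log2 ratio (SE, limma adjusted p = 0.042). In KIKO cells the libraries were scattered, 38.6%, 7.78% and 24.5% before and 14.9%, 48.5% and 26.6% after activation, and the groups overlapped. The difference of responses was -45 points but did not pass (limma adjusted p = 0.4).

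Mtmr12 encodes an adaptor related to the myotubularin lipid phosphatases but without their activity. Its 28-bp donor segment (chr15:12236104-12236234, plus strand) is coding, printed above, and not a multiple of 3. This form went from 11.8%, 21.8% and 43.5% in KI naive 1 to 3 to 62.0%, 73.1% and 71.7% in KI activated 1 to 3, and the mean rose by 43.2 points (2.41 ± 0.517 in log2 ratio, SE; limma adjusted p = 0.048). KIKO libraries stayed between 33.8% and 50.4% in both states. Mdn1 encodes an ATPase that drives assembly of the large ribosomal subunit. In its 61-bp acceptor pair (chr4:32752031-32752192, plus strand) the longer form took 89.0%, 83.6% and 48.6% in KI naive 1 to 3 and 100% in every activated library (limma adjusted p = 0.023 for KI). KIKO naive 1 to 3 already stood at 100%, 91.6% and 100%.

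Snrnp70 encodes the U1-70K protein of the U1 particle, the factor that finds donors. At its locus a 60-bp exon form and extended forms of 1360 and 2468 bp share one end on the minus strand of chr7, and the extended forms are annotated in noncoding transcripts. In the 1300-bp donor pair (chr7:45031249-45032608) the longer form took 48.8%, 66.9% and 79.9% in KI naive 1 to 3, 43.1%, 50.4% and 59.3% in KIKO naive 1 to 3, and 99.8% to 99.9% in all 6 activated libraries. The 60-bp form went from 4.91 to 24.3 FPKM in KI naive and 30.9 to 70.0 FPKM in KIKO naive libraries to at most 0.0287 FPKM in activated ones. This shift passed in both genotypes, at 2.49 ± 0.509 in KI (SE, limma adjusted p = 0.044) and 4.06 ± 0.509 in KIKO cells (SE, limma adjusted p = 0.0041). The 60-bp form had met the filter through naive libraries alone. The extended forms were themselves lower after activation in KI cells: the 1360-bp form went from between 19.6 and 24.5 to between 8.77 and 11.4 FPKM, and the 2468-bp form from between 28.0 and 40.0 to between 12.0 and 18.2 FPKM. Against a 102-bp form at the other end (acceptor pair of 2366 bp), the 2468-bp form took 31.9%, 25% and 28.6% in KI naive 1 to 3 and 13.8%, 11.6% and 8.09% in KI activated 1 to 3, without overlap (limma adjusted p = 0.15). The level of the locus went from 120 ± 18.3 to 144 ± 9.08 FPKM (SD, n = 3) in KI cells and from 183 ± 7.24 to 134 ± 3.51 FPKM (SD, n = 3) in KIKO cells.

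**Figure D2:**
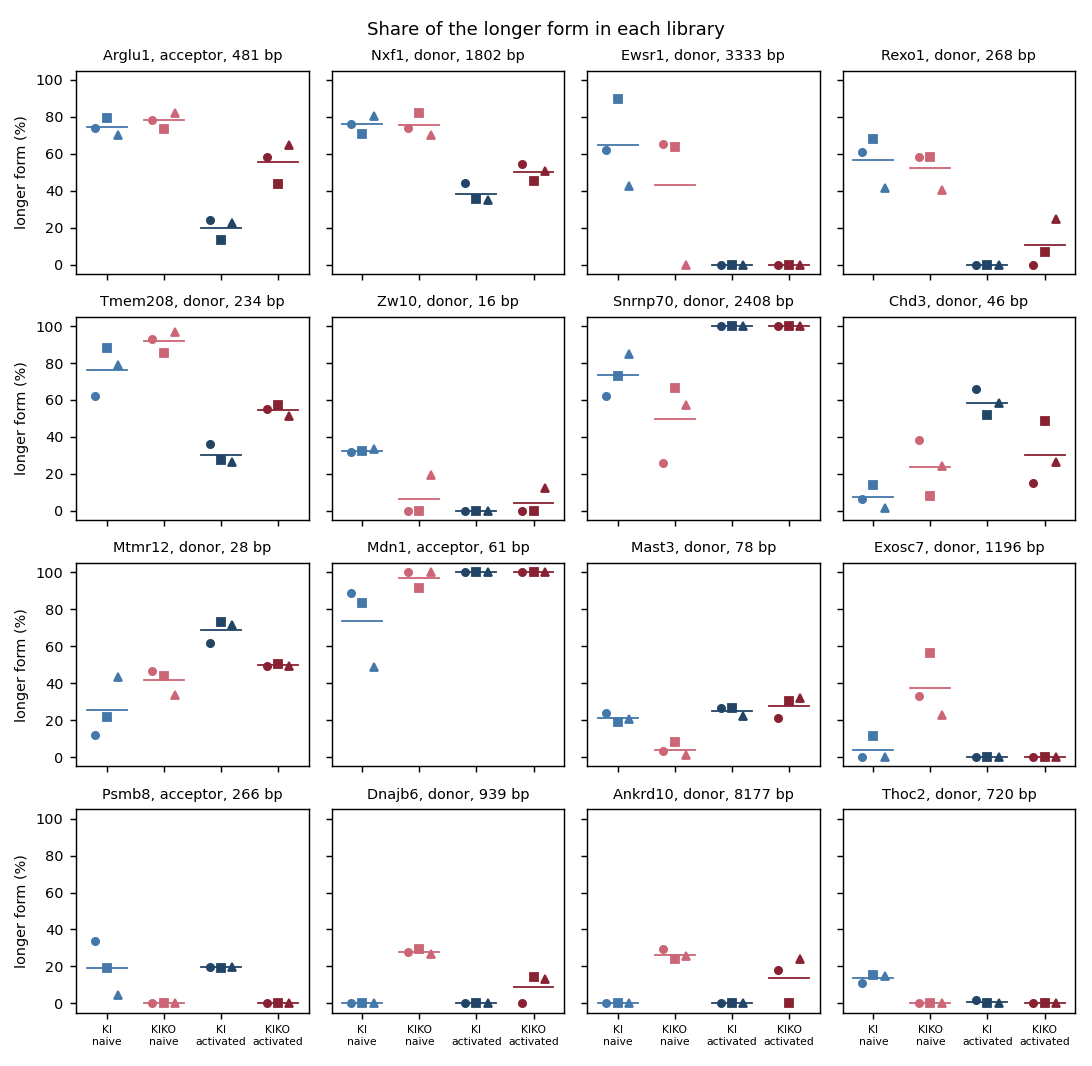
Share of the longer form (%) in each of the 12 libraries for 16 pairs named by a comparison, 1 panel a pair and locus. Circles, squares and triangles are libraries 1, 2 and 3 of a group and lines are group means; the means of Arglu1, Nxf1, Ewsr1, Rexo1 and Tmem208 are lower after activation in both genotypes, whereas Psmb8 differs between KI and KIKO cells in both states.

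The other 6 KI calls (0.344%) had differences under 10 points and are named after their values were seen: Arhgap9, Cmah, Cdipt, Gimap3, Pkm and Tomm40. At Gimap3, a GTPase of lymphocyte survival, the shorter form of a 37-bp donor pair was unlisted in KI naive and in all KIKO libraries and reached 6.96, 3.66 and 3.56 FPKM in KI activated 1 to 3 (share difference -3.36 points). At Tomm40 the longer form was unlisted in all 6 KI libraries, so its call in KI cells came from the level of the shorter form alone. The count of 23 KI calls rested on single libraries: it was between 1 and 7 without any one of the 6 KI libraries, 7 and 8 without KIKO activated 1 and 2, and 39 without KIKO naive 2. Among the calls named here, Arglu1 passed in 19 of 22 other settings, and Ewsr1 in 5 of 20.

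In KIKO cells 8 of 1746 pairs were called on activation (0.458%), 3 with the longer form higher (0.172%) and 5 with it lower (0.286%), and 4 differed by at least 10 points (0.229%). These 4 were both Snrnp70 donor pairs and the pairs of Mast3, a microtubule-associated kinase, and of Exosc7, a subunit of the RNA exosome. The shares did not overlap and differed by at least 10 points in 44 pairs up (2.52%) and 107 down (6.13%), with 89 up and 192 down when KIKO naive 2 and KIKO activated 2 were left out; 2 libraries against 2 fail to overlap more readily by chance than 3 against 3, so these counts cannot be compared in size. The count of 8 was 5 without KIKO naive 1, KIKO activated 1 or KIKO activated 2, 13 without KI naive 3, 14 without KIKO naive 2 and 16 without KIKO activated 3. KI and KIKO activation share no library, and the plot of share differences sets them side by side for all pairs.

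The larger Snrnp70 pair, of 2408 bp (chr7:45030141-45032608), went from 25.9%, 66.3% and 57.2% in KIKO naive 1 to 3 to between 99.9% and 100% in KIKO activated libraries. Its rise of 50.1 points (4.88 ± 0.635 in log2 ratio, SE, limma adjusted p = 0.0041) passed in each of the 22 other settings run. The shorter form of this pair is again the 60-bp form, which met the filter through naive libraries alone. Most of those settings kept that filter, so its p-values are not free of it. In KI cells the same pair went from 62.3%, 73.1% and 85.1% to 99.9% in each library, with limma adjusted p = 0.095. The difference between the genotypes' responses did not pass (limma adjusted p = 0.6).

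Mast3 has a 78-bp donor pair (chr8:71232839-71233098, minus strand) with both forms annotated, in coding and untranslated sequence. Its longer form was rare in KIKO naive 1 to 3, at 3.27%, 8.07% and 0.87%, and stood at 21.3%, 30.3% and 31.8% in KIKO activated 1 to 3. The rise of 23.7 points was 2.54 ± 0.439 in log2 ratio (SE, limma adjusted p = 0.025). All 6 KI libraries lay between 18.9% and 26.8%, naive and activated alike, so the KIKO naive group was the one apart; against KI naive it had limma adjusted p = 0.091.

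Exosc7, listed in the files under Clec3b, showed the opposite course. The longer form of its 1196-bp donor pair (chr9:122948306-122949596, plus strand, not in M21) took 32.8%, 56.6% and 22.6% in KIKO naive 1 to 3 and was unlisted in all 6 activated libraries (limma adjusted p = 0.017). In KI naive cells it was listed in library 2 only, at 11.4%. This form met the filter through naive libraries alone. A 964-bp donor pair has the same shorter form with another longer form. That longer form took 33.7%, 29.5% and 29.1% in KIKO naive 1 to 3 and 11.3%, 0 and 21.7% in KIKO activated 1 to 3 (limma adjusted p = 0.24). It had 0, 10.4% and 13.7% in KI naive 1 to 3 and was unlisted in KI activated libraries. The locus level of Exosc7 rose in KI cells on activation and fell in KIKO cells, by 1.02 and -0.25 on the log2(FPKM + 1) scale (limma adjusted p = 1.7e-06 and 0.04).

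The 4 KIKO calls under 10 points, named after their values were seen, were Rps18, Anapc5, Sidt2 and Tomm40. Anapc5 encodes a subunit of the anaphase-promoting complex, the ubiquitin ligase of mitosis. Use of the acceptor 24 bp further into its exon (chr5:122926365-122926527, minus strand), which leaves out the segment printed above, was unlisted in all 6 naive libraries and reached 2.41, 1.18 and 3.74 FPKM in KIKO activated 1 to 3, against 0, 0 and 0.386 FPKM in KI activated ones. The longer form thereby went from 100% to 95.7%, 96.9% and 93.0% in KIKO cells, and the pair entered through KIKO activated libraries alone.

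**Figure D3:**
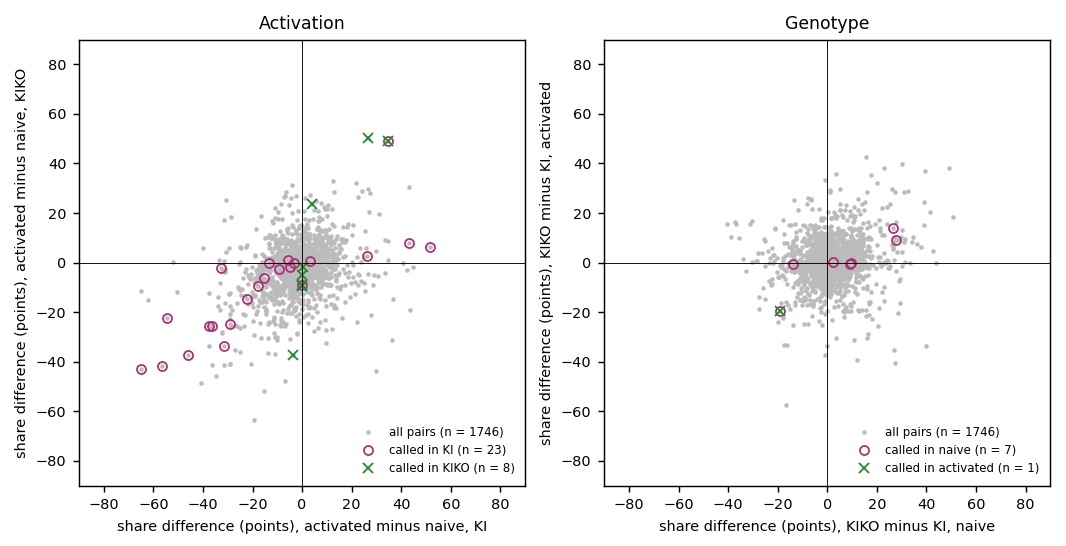
Difference of the mean share of the longer form (percentage points) for all 1746 pairs, for activation in KI against KIKO cells (left) and for KIKO minus KI in naive against activated cells (right). Rings and crosses mark the pairs called by limma in the comparison of the x and of the y axis; on the left most rings lie at negative values.

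The mean shift was largest for long extensions. For the 377 pairs with more than 300 bp, at 284 loci, the mean share over pairs was 25.4%, 24.6% and 23.1% in KI naive 1 to 3 and 18.6%, 19.5% and 17.6% in KI activated 1 to 3. In KIKO naive 1 to 3 it was 26.7%, 25.5% and 27.4%, and in KIKO activated 1 to 3 it was 23.2%, 20.7% and 23.6%. Activated libraries were thus below naive ones in both genotypes, and every KIKO activated library was above every KI activated one. For the 535 pairs of up to 30 bp the 12 libraries ranged from 52.0% to 54.1%, and KI naive and KI activated libraries overlapped. In that class every KIKO activated library (52.0% to 53.1%) was below every KI activated one (53.6% to 54.1%), the reverse of the long pairs. There 8 pairs were higher and 23 lower in KIKO activated cells, without overlap and at least 10 points apart. These were 1.5% and 4.3%, against 3.84% and 3.09% over all pairs. For the 834 pairs of 31 to 300 bp, KI libraries lay at 47.7% to 48.2% when naive and 46.6% to 46.9% when activated, and KIKO libraries at 48.9% to 49.8% and 46.9% to 47.4%, again lower after activation in both.

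Counts of single long pairs went the same way as their mean. In KI activation the groups did not overlap and differed by at least 10 points in 7 of the 377 long pairs up (1.86%) and in 54 down (14.3%), against 3.72% up and 7.27% down over all pairs. In KIKO activation these were 5 (1.33%) and 31 (8.22%), against 2.52% and 6.13%. Between the genotypes in activated cells 31 long pairs were higher in KIKO (8.22%) and 2 were lower (0.531%), against 3.84% and 3.09% over all pairs. In naive cells 27 were higher (7.16%) and 12 lower (3.18%), against 4.35% and 2.58%. These are descriptions of overlapping sets of transcripts and carry no test. Some long pairs hold a longer form that has a shorter partner at each end, as at Nxf1, Arglu1, Ewsr1, Snrnp70 and Psmb8. Such a form spans both shorter forms and the whole stretch between them. How many of the 377 long pairs are of this kind was not counted. Whether the shift is one of splice site choice or of whole introns kept in the RNA was not tested.

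Most annotated long extensions belong to noncoding transcripts. Of the 184 long pairs with both forms annotated, 158 have the longer form only in noncoding transcripts, and in 156 others only the shorter form was annotated. KI activated libraries lacked a form in 25.2% to 26% of all kept pairs and KI naive ones in 19.2% to 23.2%, which moved with the shift. Among the 135 long pairs with both forms listed in all 12 libraries, the mean share was 29.8 ± 1.83% in naive KI cells, 32.2 ± 1.70% in naive KIKO cells, 23.9 ± 1.80% after activation in KI and 28.2 ± 1.42% after activation in KIKO (SD, n = 3), so the differences were of like size there. With 1 pair per locus they were 19.9 ± 1.04%, 22.3 ± 1.22%, 13.8 ± 0.756% and 17.9 ± 1.36% (SD, n = 3). Without KIKO naive 2 and KIKO activated 2 the mean of all long pairs was 27.1% in KIKO naive and 23.4% in KIKO activated cells, and the long pairs without overlap numbered 17 up and 52 down in KIKO activation, 46 and 17 between naive and 56 and 6 between activated cells, again with fewer libraries that must not overlap.

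**Figure D4:**
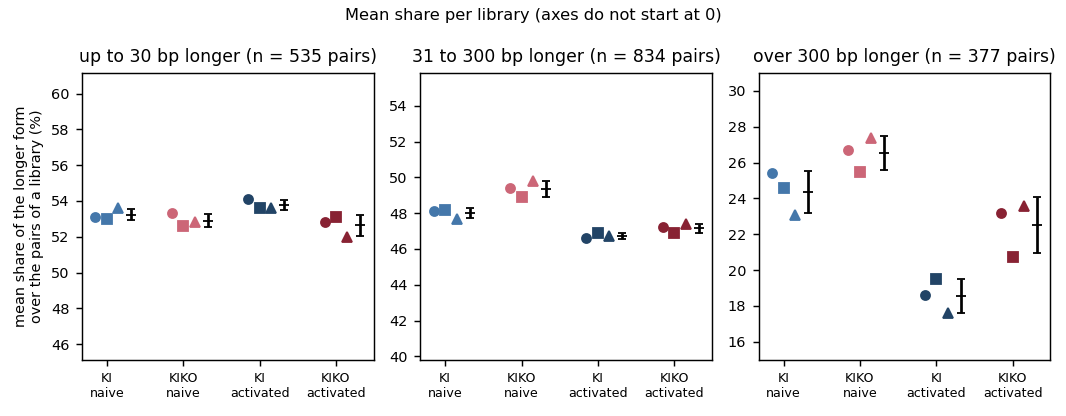
Mean share of the longer form (%) over the pairs of each size class in every library, with the group mean ± SD (n = 3) as black bars; the axes do not start at 0. Above 300 bp the KI activated libraries lie at 17.6% to 19.5%, below all others, and at up to 30 bp all libraries lie within 52.0% to 54.1%.

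Between the genotypes in naive cells 7 of 1746 pairs were called (0.401%), 5 with the longer form higher in KIKO (0.286%) and 2 with it lower (0.115%), beside 174 at an unadjusted p under 0.05 (9.97%). Those that differed by at least 10 points were Psmb8 and Thoc2, lower in KIKO, and Dnajb6 and Ankrd10, higher. In activated cells 1 pair was called (0.0573%), the same Psmb8 pair, beside 145 at an unadjusted p under 0.05 (8.30%). Shares without overlap and at least 10 points apart numbered 76 up (4.35%) and 45 down (2.58%) in naive cells and 67 up (3.84%) and 54 down (3.09%) in activated cells. Without KIKO naive 2 and KIKO activated 2 these were 142 and 70, and 120 and 85, over fewer libraries. The naive comparison and KI activation use the same KI naive libraries.

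Psmb8 encodes an inducible catalytic subunit of the immunoproteasome, the form of the proteasome that immune cells favour. Its acceptor pair of 266 bp lies at chr17:34419419-34419889 on the plus strand, with a 471-bp form that M21 does not hold and an annotated 205-bp form. The 471-bp form took 33.7%, 19.3% and 4.64% of the pair in KI naive 1 to 3 and 19.4%, 19.3% and 19.6% in KI activated 1 to 3, and it was unlisted in all 6 KIKO libraries. The difference was -3.94 ± 0.534 in log2 ratio in naive cells (SE, limma adjusted p = 0.009) and -3.98 ± 0.534 in activated cells (SE, limma adjusted p = 0.016). In FPKM the 471-bp form stood at 0.686 to 6.00 in KI libraries, while the 205-bp form stood at 8.58 to 17.2 in KI and 37.4 to 60.9 in KIKO libraries. The level of the locus was 24.0 ± 1.30 in KI and 73.4 ± 4.66 FPKM in KIKO cells when naive, and 16.5 ± 1.53 and 60.1 ± 8.62 FPKM when activated (SD, n = 3).

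At Psmb8 the KI libraries were thus lower in all and listed a form that no KIKO library listed. That form reached 1 FPKM in KI libraries alone, so the difference follows in part from the filter. The same 471-bp form is the shorter member of a 304-bp acceptor pair, in which the annotated 775-bp form took 36.8% to 91.5% in KI naive, 58.5% to 67.8% in KI activated and 100% in all KIKO libraries (limma adjusted p = 0.058 and 0.23). Psmb8 pairs without the 471-bp form in either role, such as a 338-bp acceptor pair at shares of 0 to 5.76%, were not called. On the share itself, with no pseudocount, the difference of -19.2 points in naive cells had limma adjusted p = 0.24. With 5% of the pair's sum added in place of 1 FPKM it had 0.089, and the activated difference of -19.4 points had 0.37 and 0.12. The activated call was also lost without any one of the 6 activated libraries (limma adjusted p from 0.057 to 0.13).

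Thoc2 encodes a subunit of the THO complex, which couples transcription to mRNA export. The longer form of its 720-bp donor pair (chrX:40902107-40902885, minus strand, not in M21) was listed in KI naive 1 to 3 at 11.2%, 15.5% and 15.0%, in KI activated 1 at 1.54% and in no KIKO library. It reached 1 FPKM in KI naive libraries alone, so its difference of -13.9 points, and that of -13.4 points in KI activation, follow in part from the filter. Other forms were listed in KIKO cells and in no KI library. They met the filter through KIKO libraries alone, so their differences follow in part from it. At Dnajb6, a co-chaperone of HSP70, the longer form of a 939-bp donor pair (chr5:29958540-29959589, plus strand, not in M21) had 27.9%, 29.3% and 26.7% in KIKO naive 1 to 3, 0, 14.0% and 13.0% in KIKO activated 1 to 3 and was unlisted in all KI libraries. The naive difference was 4.44 ± 0.742 in log2 ratio (SE, limma adjusted p = 0.026), while the locus level, 59.3 ± 3.66 and 56.6 ± 8.94 FPKM (SD, n = 3), had limma adjusted p = 0.81.

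Ankrd10, an ankyrin repeat protein listed here under Mir7238, was another such locus. Its 8177-bp extension at the donor (chr8:11670262-11678530, minus strand, not in M21) took 29.4%, 23.9% and 25.8% in KIKO naive 1 to 3 and 17.8%, 0 and 23.8% in KIKO activated 1 to 3. KI libraries did not list it (3.37 ± 0.584 in log2 ratio in naive cells, SE; limma adjusted p = 0.029). In activated cells neither Dnajb6 (limma adjusted p = 0.42) nor Ankrd10 (limma adjusted p = 0.45) passed. Each of these naive calls was lost without any one of the KI naive libraries, Psmb8 apart, which was lost without KI naive 2 (limma adjusted p = 0.061). The count of 7 was 2 without KI naive 1, 1 without KI naive 2, 3 without KIKO naive 1, 4 without KI activated 1 or 2 and 19 without KIKO naive 2.

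The 3 naive calls under 10 points were Rps18, Sidt2 and Arhgap4, named after their values were seen. Arhgap4 encodes a GTPase-activating protein of blood cells. The acceptor that drops the 33-bp coding segment printed above (chrX:72941575-72941652, minus strand; listed under Renbp) was used at 3.52, 4.61 and 5.40 FPKM in KI naive 1 to 3 and was unlisted in KIKO naive cells, and the longer form had 93.6%, 91.1% and 88.2% against 100%. Sidt2, a lysosomal membrane protein, had the longer form of its 642-bp acceptor pair in KIKO naive 1 to 3 only, at 12.1%, 9.87% and 6.40%. Rps18, a protein of the small ribosomal subunit, was called with a difference of 2.19 points; genes of ribosomal proteins have near-identical pseudogenes that can share reads, so its values are uncertain.

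Among the 3 lists of splicing factors, pairs at Snrnp70 were the ones called; Arglu1 is on none of them. The list of splice site selection factors held 21 pairs at 14 of 29 genes. Of these pairs, 1 rose in KI activation and 2 in KIKO activation, all at Snrnp70, where 0.286% and 0.172% of all pairs did. These calls share the same 60-bp form, which met the filter through naive libraries alone. They stand for 1 locus and are no result about the list. The 14 pairs of SR proteins and their kinases and the 10 pairs of hnRNP genes had no limma call in any comparison, with 4 and 2 at an unadjusted p under 0.05 in KI activation, where 16.8% of all pairs had one. The median share difference in KI activation was -1.92, -0.223 and -8.73 points for the 3 lists, beside -0.976 for all pairs.

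Srsf7, an SR protein whose activity its phosphorylation controls, came near the threshold. In its 9-bp coding donor pair (chr17:80511551-80511661, minus strand, printed above) the longer form had 12.2%, 18.6% and 30.7% in KI naive 1 to 3, 28.5%, 21.8% and 22.7% in KIKO naive 1 to 3, 47.9%, 44.4% and 50.2% in KI activated 1 to 3 and 41.1%, 46.4% and 46.9% in KIKO activated 1 to 3. Activated libraries lay above naive ones in both genotypes without overlap, and limma adjusted p was 0.1 and 0.25. In Hnrnpc, an hnRNP protein that binds uridine tracts and competes with U2AF, the TAG shown above was kept in 96.5%, 97.8% and 95.4% in KI naive 1 to 3 and in 74.7%, 78.4% and 77.9% in KI activated 1 to 3 (chr14:52312712-52312872, minus strand; limma adjusted p = 0.11). KIKO libraries overlapped, at 85.7% to 97.9% before and 76.2% to 93.6% after.

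Srpk1 encodes a kinase that phosphorylates SR proteins. The 587-bp extension at its acceptor (chr17:28818445-28819430, minus strand, annotated as noncoding) had 39.4%, 41.5% and 30.2% in KI naive, 17.4%, 21.1% and 20.1% in KI activated, 40.6%, 45.2% and 44.2% in KIKO naive and 35.2%, 34.2% and 44.9% in KIKO activated libraries 1 to 3. KI activated libraries lay below all others, with limma adjusted p = 0.17 for KI activation and 0.42 between the genotypes. Srsf6 had a 611-bp extension at the acceptor, not in M21, that KI libraries did not list and that took 18.6%, 5.97% and 39.1% in KIKO naive 1 to 3 (limma adjusted p = 0.11). In contrast, Fkbp8, Nolc1, Hdgfl2 and Usp19, whose tandem acceptors are printed above, had overlapping shares between naive and activated cells of both genotypes. The mean share of all 65 acceptor pairs of 3 bp stayed between 63.9% and 68.9% over the 12 libraries. Single pairs did move. In KIKO activation 6 rose (9.23%) and 1 fell (1.54%) without overlap and by at least 10 points, against 2.52% and 6.13% of all pairs. In KI activation 2 rose (3.08%) and 1 fell (1.54%), against 3.72% and 7.27%. None of the 65 was called by limma in these comparisons.

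The levels of the splicing factor loci themselves changed broadly on activation, tested by limma on log2(FPKM + 1) over 9743 loci, of which 32.2% rose and 29.5% fell in KI activation. Of 18 hnRNP loci 15 rose and none fell in KI cells, while 5 rose and 3 fell in KIKO cells, against 25.1% and 22.2% of all loci. In activated cells 14 of the 18 were lower in KIKO than in KI and none was higher, against 19.3% and 20.7% of all loci, and for 11 the change in KIKO was below that in KI by the interaction test (11.6% of all loci). Of these 11, Hnrnph3 and Hnrnpl did not pass in KI activation (limma adjusted p = 0.49 and 0.57) and fell in KIKO activation (limma adjusted p = 0.005 and 0.0052). Hnrnpu went from 78.2 ± 2.18 to 179 ± 6.39 FPKM in KI cells and from 112 ± 21.1 to 86.0 ± 14.4 in KIKO cells (SD, n = 3; limma adjusted p = 0.00063 for the interaction). Hnrnph1 went from 135 ± 31.8 to 241 ± 9.16 and from 140 ± 17.4 to 127 ± 17.2 FPKM (SD, n = 3; limma adjusted p = 0.0096). Several hnRNP genes have pseudogene copies that can share reads, among them Hnrnpa1 and Hnrnpa3.

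Of 16 loci of SR proteins and their kinases 8 rose and 6 fell in KI activation, against 32.2% and 29.5% of all loci. Those that rose were Srsf1, Srsf2, Srsf3, Srsf4, Srsf6, Srsf7, Srsf9 and Srsf10, and those that fell were Srsf5 and the kinases Srpk1, Srpk2, Clk1, Clk3 and Clk4. In KI cells Srsf3 rose from 43.7 ± 1.90 to 137 ± 3.87 FPKM and the kinase Clk1 fell from 199 ± 10.5 to 57.0 ± 10.3 FPKM (SD, n = 3; limma adjusted p = 2.4e-07 and 7.0e-07). In activated cells 5 were higher in KIKO, Clk1, Clk3, Clk4, Srpk2 and Srsf5, and 7 were lower, Srsf1, Srsf2, Srsf3, Srsf4, Srsf7, Srsf9 and Srsf10, against 20.7% and 19.3% of all loci; Srpk1 did not pass (limma adjusted p = 0.46). Of 27 selection factor loci 12 rose and 7 fell in KI activation, and in activated cells 8 were lower and 5 higher in KIKO than in KI, beside the same shares of all loci, so the counts that fell and that were higher in KIKO lay near those shares. U2af1 and U2af2, which read the acceptor, were lower there (limma adjusted p = 0.0031 and 0.002). Whether these levels bear on any pair was not tested.

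**Figure D5:**
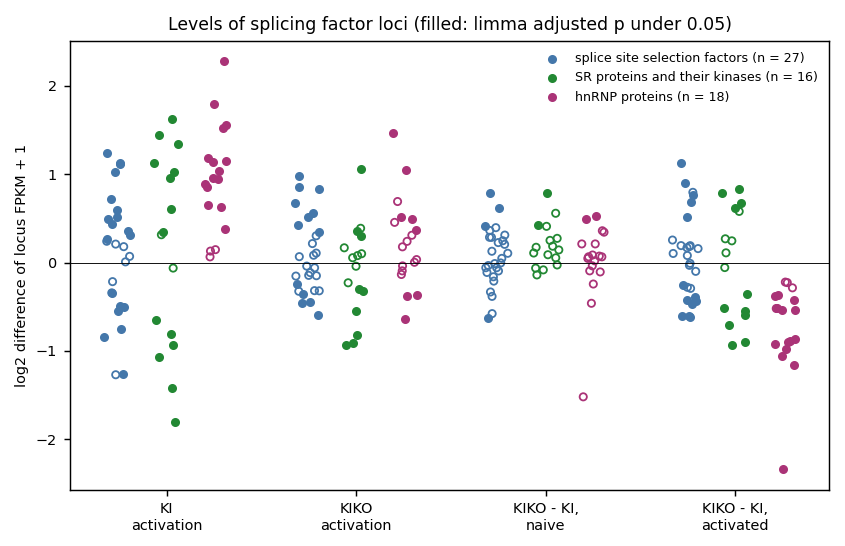
Difference of locus level, log2(FPKM + 1), for 27 splice site selection factors, 16 SR proteins and their kinases and 18 hnRNP loci in 4 comparisons; each point is 1 locus and filled points passed limma at an adjusted p under 0.05. In KI activation 15 of 18 hnRNP loci lie above 0 as filled points, and in activated cells 14 lie below 0 for KIKO minus KI.

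Pairs at genes of T cell signalling, the cell cycle and apoptosis had no call. The 9 pairs of T cell receptor signalling, 14 of the cell cycle and p53, and 6 of apoptosis held no limma call; at an unadjusted p under 0.05 there were 0, 1 and 0 of them in KI activation, 1, 1 and 2 in KIKO activation, 0, 0 and 1 between naive cells and 0, 1 and 1 between activated cells. Over all pairs these shares were 16.8%, 13.1%, 9.97% and 8.30%. Of 50 pairs at proteasome and ubiquitin genes, 1 was called in each genotype comparison, that of Psmb8, and none in activation, where 3 in KI and 2 in KIKO cells had an unadjusted p under 0.05. The loci themselves did change: 41 of 51 proteasome and ubiquitin loci rose in KI and 43 in KIKO activation, against 32.2% and 25.1% of all loci.

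Lat encodes the membrane adaptor that the T cell receptor kinases phosphorylate. Its 42-bp coding acceptor pair (chr7:125967667-125967754, minus strand) had the longer form at 86.1% to 100% in all 12 libraries, with group means of 95.6% and 94.3% in naive KI and KIKO cells and 94.8% and 93.6% in activated ones. Bcl2l11 encodes Bim, which triggers the mitochondrial path of apoptosis. In its 258-bp coding donor pair (chr2:127970540-127970934, plus strand) the longer form had 57.6%, 62.3% and 63.9% in KI naive, 69.1%, 81.5% and 66.5% in KIKO naive, 65.4%, 67.3% and 58.3% in KI activated and 45.9%, 53.6% and 55.8% in KIKO activated libraries 1 to 3. KIKO activated libraries lay below all others, 20.6 points under KIKO naive (limma adjusted p = 0.24), as the locus level rose from 12.9 ± 0.492 to 30.2 ± 2.35 FPKM (SD, n = 3; limma adjusted p = 1.1e-05).

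Ccnd3 encodes cyclin D3, which drives T cells into the cell cycle. In its 45-bp acceptor pair in the 5′ UTR (chr17:47904534-47904777, plus strand) KIKO activated 1 to 3 had the longer form at 58.8%, 53.5% and 71.9%, and KI activated 1 to 3 at 100%, 93.4% and 90.2%, without overlap (limma adjusted p = 0.54). KIKO naive 2, one of the libraries with myeloid transcripts, had 45.1% against 95.1% and 93.7% in KIKO naive 1 and 3. Hnrnph1, whose 30-bp segment is printed above, kept its longer form at 98.4% to 99.9% in 11 libraries and had 91.2% in KIKO activated 2, the other such library.

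The difference between the genotypes' responses to activation was called by limma at 1 of 1746 pairs (0.0573%), that of Rps18, with 127 pairs at an unadjusted p under 0.05. For Chd3, Zw10, Mtmr12 and Exosc7, where one genotype moved by 30 points or more and the other by less than 10, limma adjusted p for the interaction lay at 0.4, 0.64, 0.54 and 0.72, so no difference of response was shown for them.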

How the data were processed

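RNA from 12 libraries (15 ng total RNA, poly(A) selection, TaKaRa stranded SMART-seq kit, per the labels' protocols) was processed by the authors with FastQC 0.11.9, cutadapt 2.9 and HISAT2 2.2.0, per the submitters' processing notes, which name the builds GRCm39 and mm10; coordinates in the files are GRCm39. The sources used here do not name the program that made the events. The deposited values are FPKM per transcript event, 1 file per library, as the authors made them, with no event listed at 0. Duplicate events were dropped and an absent event was taken as 0.

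Pairs were kept by the rule given at the start. Names came from GENCODE M21 (GRCm38), matched by exon and intron structure (at least 4 coinciding boundaries within 1000 kb) with no conversion of coordinates; 253 names differ from the files'. Sequences were read from M21 transcripts.

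limma 3.58.1 (R 4.3.3) fitted 4 group means to log2((longer + 1)/(shorter + 1)) with a variance trend on the mean log2 summed FPKM, two-sided, Benjamini-Hochberg over 1746 pairs. Locus levels (the largest of summed transcript starts, summed transcript ends and the largest event, at least 1 FPKM in 3 libraries) were fitted as log2(FPKM + 1). On simulated data for KI activation in 1746 pairs, log2 changes of 1, 2, 3 and 4 were recovered in 4%, 36%, 80% and 74% of 50 pairs each, with 6 false calls.

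Genes were named by rule: per comparison the 6 called pairs each way, without overlap and at least 10 points apart, with the largest difference of share, 1 per locus; up to 3 pairs per list with the smallest p; and pairs next to the thresholds. Genes outside it are said to be named after their values were seen. The members, the 7 gene lists and the naming rule were chosen with earlier results of these data known. Alternatives covered the pseudocount, the share itself, filters, 1 pair per locus, a replicate block, the trend, sample weights and leaving out each library; 3 more, and all those for locus levels, were added after the data were seen.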

Additional observations from a re-analysis of the deposited data

Results flagged for a closer look

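One result met a rule for a closer look, because the genotypes differed in their response by the interaction test. In the 19-bp acceptor pair of Rps18 (chr17:34171195-34171286, minus strand, coding), the interaction was -4.85 ± 0.36 on the log2 ratio scale (SE, limma adjusted p = 3.4e-05). The shorter form had 28.6, 36.4 and 35.5 FPKM in KI naive 1 to 3, 39.4, 37.2 and 40.5 in KI activated 1 to 3 and 30.7, 29.6 and 21.4 in KIKO activated 1 to 3, and it was unlisted in KIKO naive 1 to 3. The longer form stood at 1374 to 1993 FPKM in all 12 libraries, so its share was 97.4% to 98.6% in 9 libraries and 100% in KIKO naive ones. KIKO naive 2, with its myeloid transcripts, did not stand apart from KIKO naive 1 and 3 here. Near-identical pseudogenes of Rps18 can share its reads, and their part in the result was not tested.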

How the results depend on the processing

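No named call changed direction under any setting run, but most of the KI activation calls were lost when any one KI library was left out. The counts of called pairs moved as follows. With a pseudocount of 0.25 FPKM they were 9 in KI activation, 2 between activated cells and 4 for the interaction. On the share itself they were 30 in KIKO activation and 0 for the interaction (122 at an unadjusted p under 0.05 by limma). With a summed FPKM of 1 and no minimum per form, over 9195 pairs, they were 1835, 619, 33 and 366 in KI activation, KIKO activation, naive and activated cells and 9 for the interaction; 990, 320, 11 and 182 of the first 4 counts differed by under 1 point in share. A summed FPKM of 10 gave 14 in KI activation. With both forms listed in all libraries there were 0 in each genotype comparison and for the interaction (78, 77 and 53 at an unadjusted p under 0.05). With 1 pair per locus there were 15, 4 and, between activated cells, 0 (96 unadjusted). Sample weights gave 48 in KI activation, 2 between activated cells and 2 for the interaction. With a pseudocount scaled to the pair, KI activation had 14 and activated cells 0 (138 unadjusted); with both forms annotated KI activation had 8, naive cells 3 and activated cells 0 (98 unadjusted); at most 300 bp longer, they were 9 in KI activation, 4 in KIKO activation and 3 in naive cells. The replicate block left 3 in KI activation and moved no other count by over 1.5 times. Same-numbered deviations correlated at -0.0272 to 0.125 across pairs, so the numbers were not taken to pair the libraries; KIKO naive 2 and KIKO activated 2 both held myeloid transcripts, and whether they share an animal is not given.

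Leaving out each library gave 1 to 39 calls in KI activation, 5 to 16 in KIKO activation, 1 to 19 between naive cells, 0 to 3 between activated cells (109 to 148 unadjusted where 0) and 1 to 3 for the interaction. Of the 61 splicing factor loci, 8 were called between naive cells, 5 with no filter on low loci or no variance trend, and 4 to 9 without 1 library; the counts of the other 4 comparisons stayed within 1.5 times under every setting run. FPKM carries no depth, so a form that was not listed cannot be told from one too rare to be assembled.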
